A study of Mus musculus with 12 samples.

Results

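The Myc and Max network is a set of transcription factors of the bHLHZip kind (basic helix-loop-helix followed by a leucine zipper) that pair through Max or through Mlx. Its 10 genes were taken by symbol: Myc, Max, Mxd1, Mxd3, Mxd4, Mxi1, Mnt, Mga, Mlx and Mlxip. Of these, 9 were listed in at least 1 library and 8 were expressed enough to be tested, out of 15125 loci listed in all and 9743 tested. The study measured poly(A) RNA of mouse splenic CD4 T cells of 2 genotypes, named KIKO and KI in the labels, in 12 libraries. KIKO activated and KI activated cells (3 libraries each) had been stimulated for 16 h on anti-CD3 and anti-CD28 beads, and KIKO naive and KI naive cells (3 libraries each) had not. The series' title places the work in immunodeficiency from a failing proteasome in T cells. The labels name the genotypes only as KIKO and KI, with no gene, allele, strain, sex or age, so the targeted gene could not be looked up, and no wild-type library is among the 12. The titles of the KIKO activated libraries say T cells without CD4, and no label says that the 3 libraries of a group came from separate mice, so p-values measure the spread between these libraries.

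MYC forms a dimer with MAX and activates genes through the E-box, the sequence CACGTG. MXD1, MXI1, MXD3, MXD4 and MNT compete for the same MAX and the same E-boxes and repress by recruiting SIN3 and histone deacetylases, so they are called the antagonists of MYC. MGA also pairs with MAX, within a Polycomb complex, whereas MLX pairs with MLXIP (MondoA), a sensor of glucose metabolites, and with some of the antagonists. In resting T cells MYC is low, and receptor stimulation raises it and with it growth, ribosome production and metabolism.

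The E-box is also present in promoters of the network itself. RefSeq promoter windows (GRCm38.p6, 250 bases before to 50 bases after the start) were held for 9 of the 10 genes, all but Myc. CACGTG, which reads the same on both strands, was found in the windows of 4 of the 9 genes, against 8.09% of the 27025 genes with a window. A match is only a match of letters. The stretches below are shown with the E-box in capitals to let the 4 promoters be compared. Between activated KIKO and KI cells, Max and Mnt, which hold an E-box, were called, and so was Mxi1, which held none in its 3 windows. Mlx, which holds an E-box, was not called, nor were Mga and Mlxip, which hold none. For Mxd4, which holds an E-box, the call depended on the level used, as given below. The part of the E-box in these differences was not tested.
Max, chr12:76962234-76962263, minus strand: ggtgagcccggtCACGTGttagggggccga
Mxd4, chr5:34187912-34187941, minus strand: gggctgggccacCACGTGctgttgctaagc
Mnt, chr11:74830789-74830818, plus strand: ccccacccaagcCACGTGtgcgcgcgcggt
Mlx, chr11:101087238-101087267, plus strand: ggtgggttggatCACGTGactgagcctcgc
The first base of the E-box lay 3 bases before the start in Max, 40 in Mlx, 123 in Mnt and 219 in Mxd4.

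Levels are FPKM, which correct for transcript length and library size, so they can be compared between genes, but the depth behind them is unknown. The libraries listed 9771 to 11102 loci. KIKO naive 2 had the fewest lines, 85319 against 100188 to 112679 in the other libraries. KIKO activated 2 and KIKO naive 2 also held transcripts of some myeloid marker genes. S100a9 stood at 92.8 and 110 FPKM in those 2 libraries, and at no more than 3.69 FPKM in each of the others. Not every marker followed. Cd68 was at 1.24 FPKM in KIKO activated 2, within the range of its group, and at 0.0 in KIKO naive 2. Csf1r was at 1.83 FPKM in KIKO activated 2 and at 0.0 in KIKO naive 2, and Itgam and Cd14 were not listed. The summed level of the 6 listed of 8 myeloid markers was 1.57 to 170 FPKM in KIKO activated, 1.04 to 1.995 in KI activated, 1.46 to 206.3 in KIKO naive and 1.39 to 1.68 in KI naive cells. In KI activated cells Lyz2, S100a8, S100a9 and Fcer1g were at 0. The summed level of the 5 listed of 7 T cell markers (Lck and Cd28 were not listed) was 385 to 604 FPKM in KIKO activated, 778 to 861 in KI activated, 734 to 889 in KIKO naive and 998 to 1187 in KI naive cells. Of these markers, Cd4 was at 86.4 to 138 FPKM in KIKO activated and 171 to 182 FPKM in KI activated cells. The 6 stimulation markers (Cd69, Il2ra, Tnfrsf9, Tnfrsf4, Nr4a1 and Egr2) summed to 376 to 515 FPKM in KIKO activated, 757 to 857 in KI activated, 60.4 to 77.0 in KIKO naive and 71.4 to 98.9 in KI naive cells. The 7 listed of 8 markers of NK or CD8 cells summed to 12.9 to 20.6 FPKM in KIKO activated, 12.2 to 14.6 in KI activated, 23.8 to 37.2 in KIKO naive and 18.9 to 25 in KI naive cells, highest in KIKO activated 2 and KIKO naive 2 within their groups. Markers of B cells and of red cells summed to at most 2.78 and 3.36 FPKM in any library. On the first principal component, which held 58.9% of the variance, KIKO activated libraries stood at 28.5, 40.9 and 11.5, KI activated at 47 to 57.1 and naive libraries at -42.4 to -38.9, so KIKO activated 3 lay nearest to the naive libraries among the activated ones. The part of these differences in the results below was not tested. In bulk RNA, fewer cells of a type and less RNA per cell cannot be told apart.

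In activated cells, Myc and Max were lower in KIKO than in KI cells and Mxi1 and Mnt were higher, while Mga, Mlx, Mlxip and the Mxd4 locus were not called. In naive cells no member was called. Differences are on the log2(FPKM + 1) scale with limma's standard error (SE), and a locus is called at a Benjamini-Hochberg adjusted p under 0.05 over all 9743 loci. In activated cells 4 of the 8 tested members were called, against 40.0% of all loci. Of the 8, 2 were higher in KIKO cells (20.7% of all loci) and 2 lower (19.3%). In naive cells limma called 0 of 8, with 1 member (Max) at an unadjusted p under 0.05, against 10.4% of all loci called (6.46% higher and 3.9% lower in KIKO). Activation changed 6 of 8 members in KIKO cells, 2 up and 4 down, where 47.3% of all loci were called (25.1% up, 22.2% down). Activation changed 8 of 8 in KI cells, 3 up and 5 down, where 61.7% of all loci were called (32.2% up, 29.5% down). The difference between these responses (the interaction, the KIKO response minus the KI response) was called for 3 of 8, against 20.6% of all loci, 1 of them positive (8.99% of loci) and 2 negative (11.6%). With so few members, these shares say little against the background, and the values below give the size and direction for each member. The median difference of the 8 members between KIKO and KI was 0.13 in activated cells, against 0.04 over all loci, and 0.0136 in naive cells, against 0.05 over all loci.

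**Figure D1:**
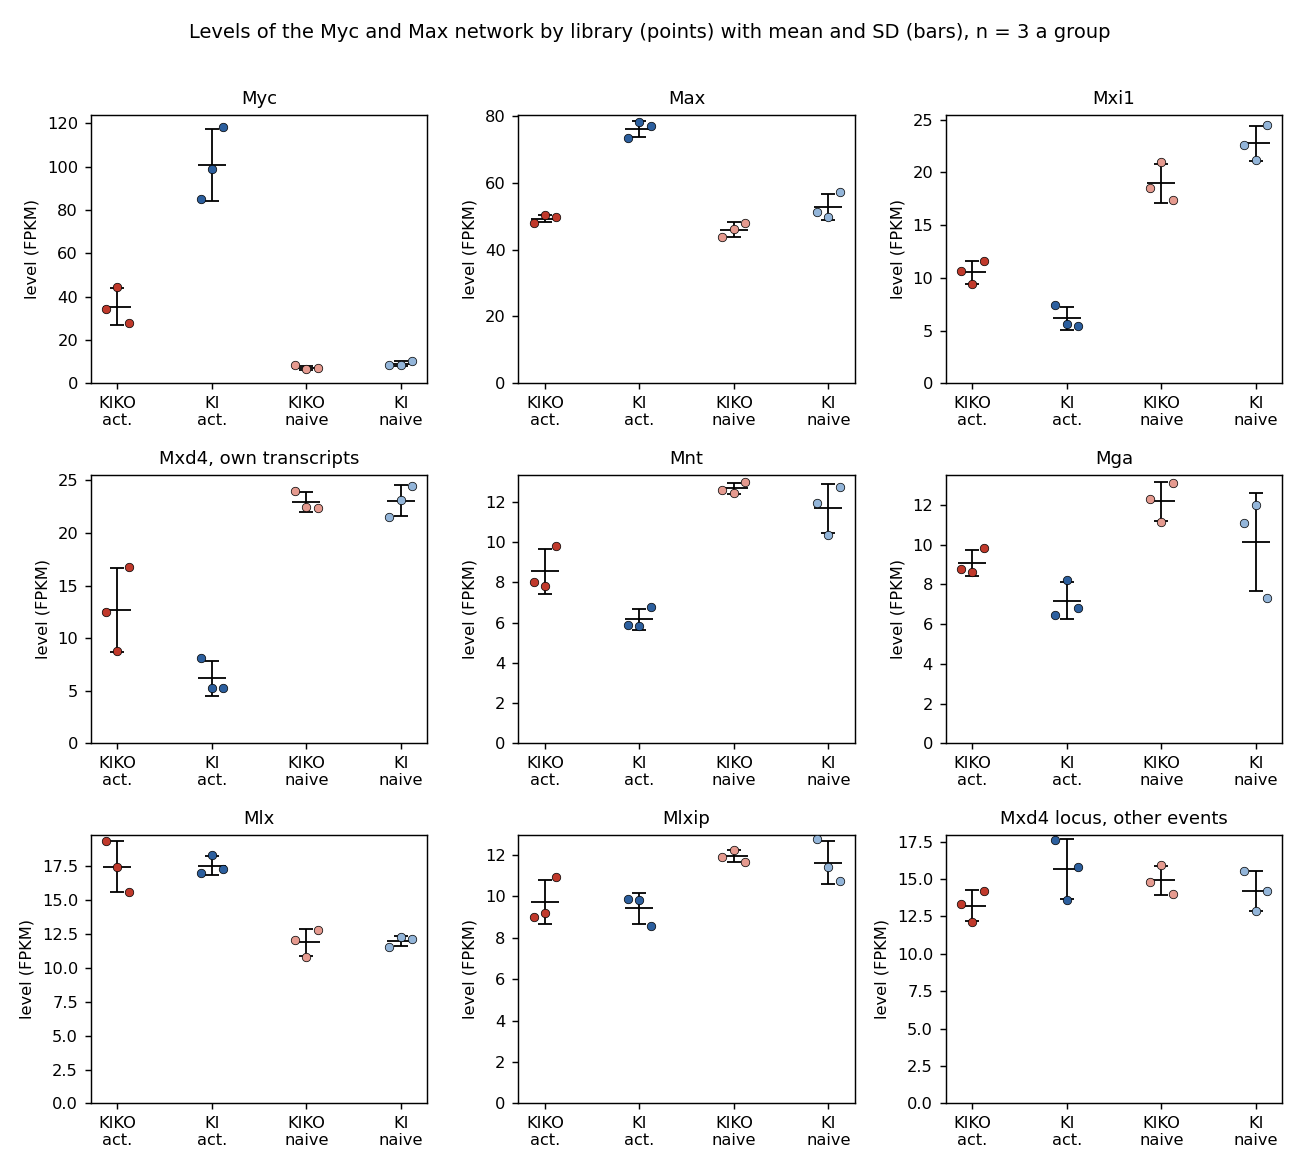
Levels in FPKM (vertical axes, starting at 0) of 8 tested members and of the other events joined to the Mxd4 locus, for KIKO activated, KI activated, KIKO naive and KI naive cells from left to right. Points are libraries and bars the mean and SD of 3 libraries. Myc in KIKO activated cells lies between the naive libraries and the KI activated libraries, and so do Mxi1, Mnt and Mxd4 from its own transcripts.

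Myc itself was the member with the widest range. Its locus (chr15:61857240-61862102, plus strand, GRCm39, as are all coordinates from the files) had 34.4, 44.2 and 27.6 FPKM in KIKO activated cells and 85.3, 99.0 and 118 FPKM in KI activated cells. It had 8.23, 6.37 and 7.06 FPKM in KIKO naive and 8.60, 8.25 and 10.3 FPKM in KI naive cells. Every KIKO activated library was below every KI activated library and above every naive library, and the naive genotypes did not overlap, though narrowly. In activated cells Myc was lower in KIKO, with a difference of -1.50 ± 0.17 on the log2 scale (SE; limma adjusted p = 3.58e-05), with means of 35.4 ± 8.3 and 101 ± 17 FPKM (SD, n = 3 each). In naive cells the difference was -0.29 ± 0.17 (limma adjusted p = 0.296), with a 95% interval of -0.66 to 0.08. Activation raised Myc by 2.13 ± 0.17 in KIKO cells (limma adjusted p = 2.79e-06) and by 3.33 ± 0.17 in KI cells (limma adjusted p = 4e-08). The KIKO response was smaller, with a difference of -1.20 ± 0.24 (limma adjusted p = 0.00503), and without any single library it lay between -1.37 and -1.04. Without the 2 KIKO libraries that held myeloid transcripts, the difference between activated KIKO and KI cells was -1.67 and that between the responses -1.45. KIKO activated 3 had the lowest Myc of its group and the highest Mxi1, Mnt and Mxd4. Without it the Myc difference between activated cells was -1.34 (limma adjusted p = 0.000128) and that between the responses -1.04. In activated cells, the summed stimulation markers were lower in KIKO too, and their part in the Myc difference was not tested. Among them Cd69 overlapped between the genotypes, at 161, 197 and 113 FPKM in KIKO activated and 167, 199 and 154 FPKM in KI activated cells. In order of level, KI activated stood above KIKO activated, and KIKO naive and KI naive came last without differing by the test.

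Transcripts of Myc began mostly at its first start. A second start inside the gene (chr15:61858883-61859152) took 0.0%, 9.76% and 9.08% of the summed starts in KIKO activated libraries and 4.48%, 5.09% and 5.11% in KI activated libraries. In naive libraries it took 27.4%, 8.41% and 17.7% in KIKO and 50.3%, 0.0% and 0.0% in KI. The naive values scattered too widely between libraries for any comparison, and the start stood at 0 to 4.33 FPKM there.

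Max, the shared partner, had the highest level of the members in naive cells. Its locus (chr12:76983954-77008975, minus strand) had 48.0, 50.2 and 49.6 FPKM in KIKO activated and 73.4, 78.1 and 76.9 FPKM in KI activated cells. It had 43.7, 46.1 and 48.0 FPKM in KIKO naive and 51.2, 49.8 and 57.3 FPKM in KI naive cells. Only the KI activated libraries stood above the rest, and the KIKO activated libraries overlapped KIKO naive. In activated cells Max was lower in KIKO, with a difference of -0.62 ± 0.08 (limma adjusted p = 9.62e-05), and in naive cells the difference was -0.19 ± 0.08 (limma adjusted p = 0.144). With activation the difference was 0.10 ± 0.08 in KIKO cells (limma adjusted p = 0.324), with a 95% interval of -0.07 to 0.27, while Max rose by 0.52 ± 0.08 in KI cells (limma adjusted p = 0.000116). The responses differed by -0.42 ± 0.11 (limma adjusted p = 0.0211). That last call was lost under quantile normalization (-0.21, adjusted p = 0.192). It was also lost without KI naive 1, KI naive 2, KI activated 2, KIKO naive 3 or KIKO activated 1, where it lay between -0.40 and -0.38 at limma adjusted p = 0.0511 to 0.0588.

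The protein-coding reading frame of Max can be cut short by an alternative exon, and the share of transcripts with that exon fell with activation. The exon has 85 bases (chr12:76986204-76986288, GRCm39), the length of an exon in a GENCODE M21 transcript annotated as a target of nonsense-mediated decay. Read in the frame of full-length Max, it brings a stop after 103 codons in place of 160. Its first 30 bases in GRCm38 (chr12:76939485-76939514, minus strand) are shown with the in-frame stop, bases 15 to 17 of the exon, in capitals.
Max 85-base exon, first bases: gggaaagcgagagcTGAtcaagttctttgt
The exon was included in 11.3%, 12.8% and 9.199% of the FPKM over the site in KIKO activated cells and in 4.82%, 6.12% and 6.10% in KI activated cells. In naive cells it was included in 29.2%, 21.8% and 30.2% in KIKO and in 29.4%, 22.1% and 30.6% in KI. Naive genotypes overlapped fully, activated cells of both genotypes lay below all naive libraries, and KIKO activated lay between KI activated and naive. Included FPKM were 4.57 to 6.41 in KIKO activated, 3.54 to 5.09 in KI activated, 10.1 to 13.1 in KIKO naive and 11.0 to 17.5 in KI naive cells. The test used log2((included + 1)/(skipped + 1)) for 6203 exons with at least 5 FPKM over the site in every library. The ratio fell by 1.44 ± 0.25 with activation in KIKO cells (limma adjusted p = 0.00733; 10.2% of exons called) and by 2.43 ± 0.25 in KI cells (limma adjusted p = 0.000168; 23.9% called). With a pseudocount of 0.25 the KIKO call was lost (-1.54, limma adjusted p = 0.0667). Activated KIKO and KI cells differed by 0.98 ± 0.25 (limma adjusted p = 0.0448; 6.92% called), a call lost under a pseudocount of 0.25 (adjusted p = 0.245) and without any one of 10 of the 12 libraries (0.87 to 1.10, adjusted p = 0.051 to 0.112). The responses differed by 0.98 ± 0.35 without a call (limma adjusted p = 0.265; 0.403% called), and naive cells by -0.0087 ± 0.25 (limma adjusted p = 0.991; 0.742% called).

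A second alternative exon separates long from short Max near the start of the protein. It has 27 bases, 9 codons, at chr12:77008037-77008063 (GRCm39), and is shown whole from GRCm38 (chr12:76961263-76961289, minus strand) because it leaves the frame intact, unlike the 85-base exon.
Max 27-base exon: gaagagcaaccgaggtttcaatctgcg
Its inclusion was 37.6%, 26.0% and 17.8% in KIKO activated, 29.6%, 39.1% and 33.9% in KI activated, 28.2%, 27.3% and 25.5% in KIKO naive and 26.1%, 26.3% and 28.0% in KI naive cells. The KIKO activated libraries spread from 17.8% to 37.6% and overlapped all other groups, so no order can be read.

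**Figure D2:**
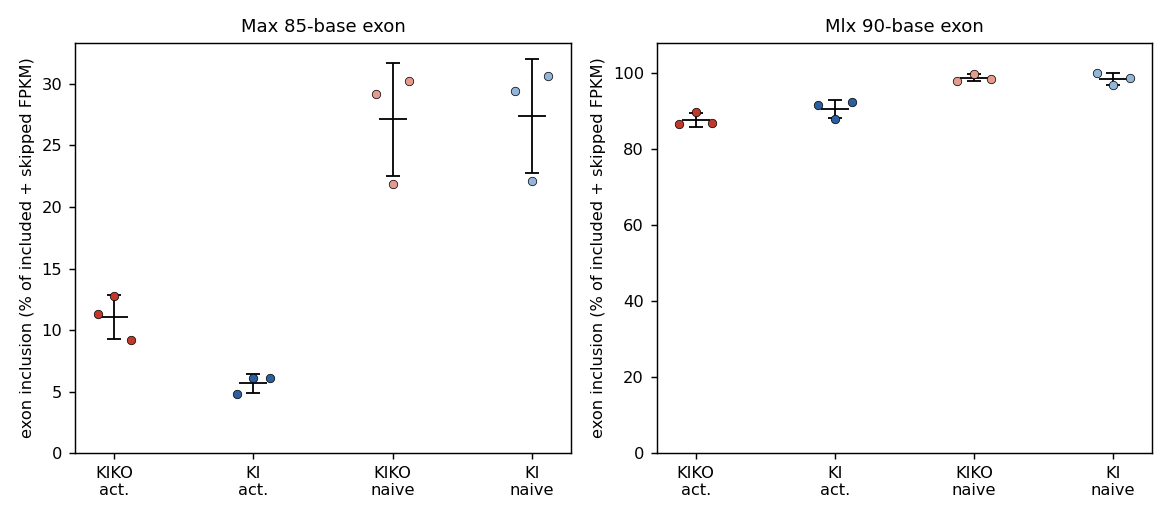
Inclusion (vertical axes, percent of included plus skipped FPKM, starting at 0) of the 85-base exon of Max and of a 90-base exon of Mlx in KIKO activated, KI activated, KIKO naive and KI naive cells. Points are libraries and bars the mean and SD of 3. The Max exon is at 21.8% to 30.6% in naive libraries and at 4.82% to 12.8% in activated ones.

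Mxi1, Mnt and Mxd4's own transcripts went the other way from Myc. Mxi1 (chr19:53298857-53364241, plus strand), which encodes the antagonist also called MXD2, had 10.6, 9.37 and 11.6 FPKM in KIKO activated and 7.41, 5.66 and 5.43 FPKM in KI activated cells. It had 18.5, 21.03 and 17.4 FPKM in KIKO naive and 22.6, 21.2 and 24.5 FPKM in KI naive cells. The groups followed the order KI naive, KIKO naive, KIKO activated, KI activated with no overlap between neighbours, though the naive genotypes did not differ by the test. Mxi1 was higher in activated KIKO than KI cells by 0.69 ± 0.13 (limma adjusted p = 0.000953), and the naive difference was -0.25 ± 0.13 without a call (limma adjusted p = 0.224). It fell by 0.79 ± 0.13 with activation in KIKO (limma adjusted p = 0.00031) and by 1.74 ± 0.13 in KI cells (limma adjusted p = 3.37e-07), and the responses differed by 0.94 ± 0.18 (limma adjusted p = 0.00376). All of these calls held without any single library.

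Transcripts of Mxi1 began mostly at its proximal start. The distal start (chr19:53298857-53299404) took 22.4%, 42.4% and 17.7% of all starts in KIKO activated, 25.6%, 17.0% and 16.7% in KI activated, 12.0%, 12.8% and 14.4% in KIKO naive and 7.04%, 7.41% and 5.82% in KI naive cells. Activated libraries were all above naive ones, and KIKO naive all above KI naive. No test was run on these shares.

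Mxd4 (chr5:34181650-34345225, minus strand) was listed in a locus that joined it to its neighbours. Events below the last exon of Mxd4 matched exon lengths of Poln and Haus3, genes of DNA repair and of the spindle, and their level was 12.1 to 14.2 FPKM in KIKO activated, 13.6 to 17.6 in KI activated, 14.0 to 15.9 in KIKO naive and 12.9 to 15.5 in KI naive cells. The whole locus had 25.8, 20.9 and 30.9 FPKM in KIKO activated, 25.5, 18.9 and 21.04 in KI activated, 38.8, 38.4 and 36.3 in KIKO naive and 37.0, 32.2 and 38.7 in KI naive cells. The events from the last exon of Mxd4 upwards, an alternative added after the data were seen, are called its own transcripts. These had 12.4, 8.79 and 16.7 FPKM in KIKO activated and 8.08, 5.25 and 5.21 FPKM in KI activated cells. They had 24.01, 22.4 and 22.3 FPKM in KIKO naive and 21.5, 23.2 and 24.5 FPKM in KI naive cells. Their last exon and a 30-base exon matched Mxd4 by length, but their start exon (372 bases) matched Mfsd10 and not Mxd4. With the events below the last exon removed, activated KIKO libraries no longer overlapped KI ones. In activated cells the whole locus differed by 0.23 ± 0.14 (limma adjusted p = 0.216), and Mxd4's own transcripts were higher in KIKO by 0.91 ± 0.19 (limma adjusted p = 0.00289), or by 0.70 without KIKO activated 3 (limma adjusted p = 0.0102). Its own transcripts fell by 0.85 ± 0.19 with activation in KIKO (limma adjusted p = 0.00355) and by 1.77 ± 0.19 in KI cells (limma adjusted p = 8.46e-06). The whole locus fell by 0.55 ± 0.14 in KIKO (limma adjusted p = 0.00721) and by 0.70 ± 0.14 in KI cells (limma adjusted p = 0.000916). Without the 2 KIKO libraries with myeloid transcripts the whole locus lost its call in KIKO (-0.40, limma adjusted p = 0.061). The responses of its own transcripts differed by 0.91 ± 0.28 (limma adjusted p = 0.0351), a call that 10 of the 12 fits without 1 library lost, all but those without KI activated 1 or KIKO activated 2 (0.71 to 0.96 at adjusted p = 0.0519 to 0.088). The responses of the whole locus differed by 0.16 ± 0.20 without a call (limma adjusted p = 0.629). Naive genotypes differed in Mxd4's own transcripts by -0.0058 ± 0.19 (limma adjusted p = 0.995).

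Mnt (chr11:74720959-74755038, plus strand), the antagonist found in most cell types, had 8.00, 7.83 and 9.82 FPKM in KIKO activated and 5.86, 5.85 and 6.75 FPKM in KI activated cells. It had 12.6, 12.4 and 13.0 FPKM in KIKO naive and 11.9, 10.3 and 12.7 FPKM in KI naive cells. Activated libraries were all below naive ones, and KIKO activated all above KI activated. Mnt was higher in activated KIKO cells by 0.41 ± 0.11 (limma adjusted p = 0.0115), a call lost under quantile normalization (0.30, adjusted p = 0.0532). Without KIKO activated 3 the difference was 0.32 (limma adjusted p = 0.0467). It fell by 0.52 ± 0.11 with activation in KIKO (limma adjusted p = 0.00232) and by 0.82 ± 0.11 in KI cells (limma adjusted p = 4.69e-05). The responses differed by 0.30 ± 0.16 (limma adjusted p = 0.211), with a 95% interval of -0.05 to 0.64, and naive genotypes by 0.11 ± 0.11 (limma adjusted p = 0.561).

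The other antagonists were scarcely detected. Mxd3 (chr13:55472981-55477636, minus strand), which peaks in cycling cells, was listed in 4 libraries, at 0.339, 1.03 and 0.124 FPKM in KIKO naive 1, 2 and 3 and at 0.194 FPKM in KI activated 1, and at 0 elsewhere. It was too low to be tested. Mxd1, the antagonist linked to differentiation, was listed in none of the 12 libraries. A gene that is not listed is not shown to be silent.

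**Figure D3:**
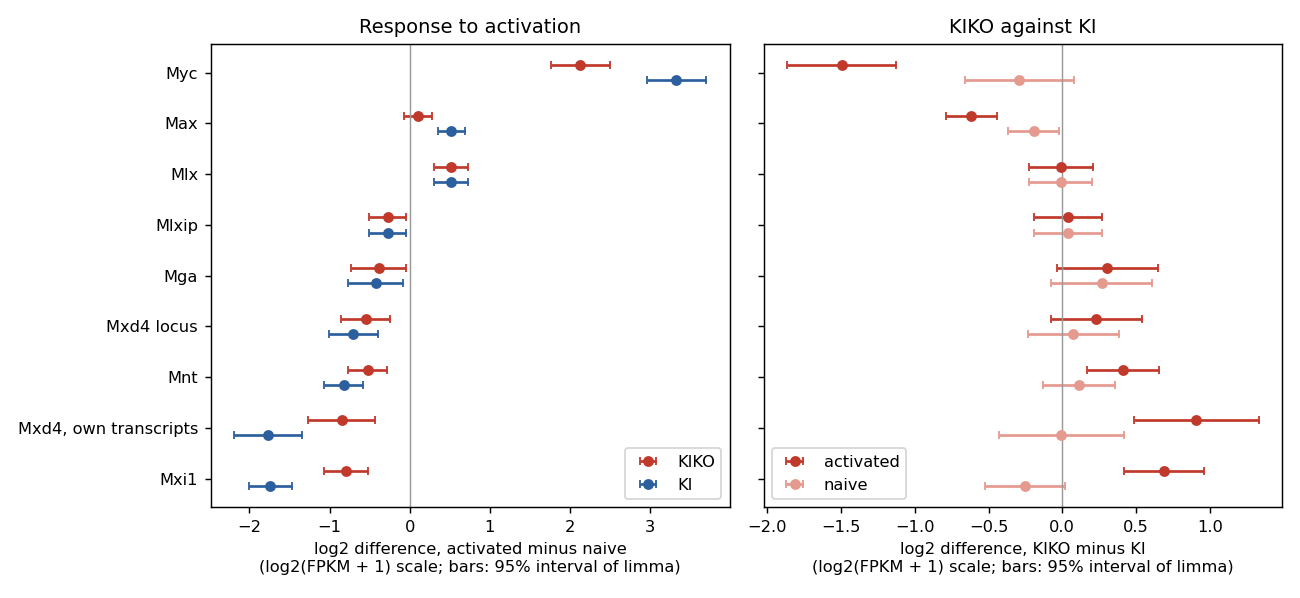
Differences on the log2(FPKM + 1) scale (horizontal axes) with 95% intervals from limma, for the members named on the vertical axis. The left panel gives activated minus naive cells in KIKO and in KI, and the right panel KIKO minus KI cells, activated and naive. Myc shows the largest response in both genotypes, and Mxi1 and Mxd4's own transcripts fall by less in KIKO than in KI.

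Myc and its antagonists were set side by side as the ratio of the Myc level to the summed levels of Mxd1, Mxd3, Mxd4, Mxi1 and Mnt, all in FPKM. With Mxd4 as the whole locus, the ratio was 0.775, 1.16 and 0.528 in KIKO activated and 2.19, 3.26 and 3.56 in KI activated cells. It was 0.117, 0.0874 and 0.106 in KIKO naive and 0.1203, 0.129 and 0.136 in KI naive cells. That sum still holds the events of the neighbours of Mxd4. With Mxd4 from its own transcripts, the ratio was 1.11, 1.70 and 0.725 in KIKO activated and 3.96, 5.91 and 6.80 in KI activated cells, and 0.112 to 0.148 in KIKO naive and 0.151 to 0.167 in KI naive cells. By this last ratio Myc stood below the summed antagonists in 1 of 3 KIKO activated libraries, in none of the KI activated libraries and in every naive library. With Mxd4 as the whole locus, Myc stood below them in KIKO activated 1 (0.775) as well as in KIKO activated 3 (0.528). The ratio is of transcripts, not of proteins, and no test was run on it since its parts were tested above.

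**Figure D4:**
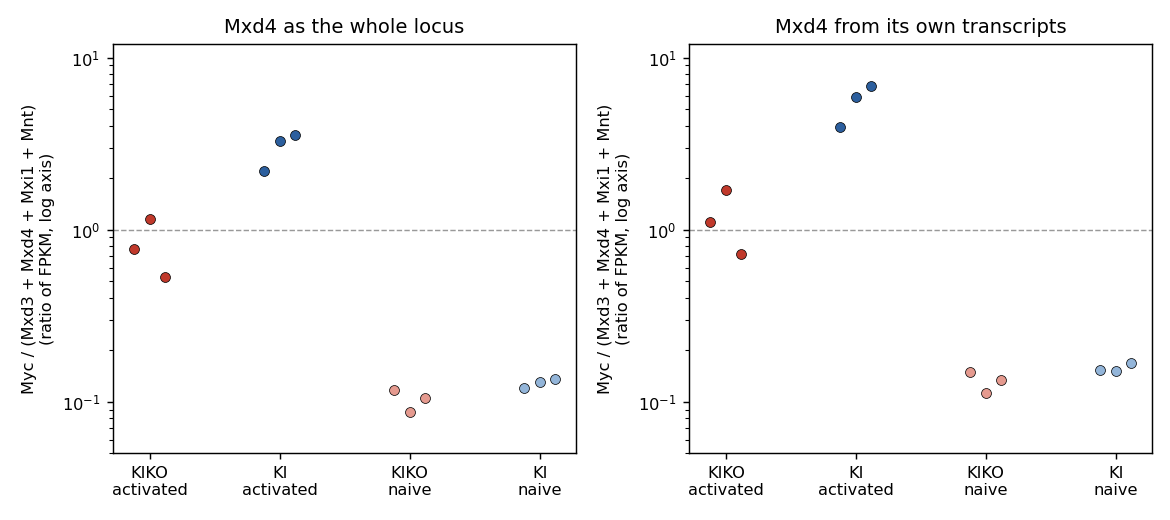
Ratio of Myc to the summed antagonists Mxd3, Mxd4, Mxi1 and Mnt (vertical axes, log scale; Mxd1 was not listed) in KIKO activated, KI activated, KIKO naive and KI naive cells, with Mxd4 as the whole locus on the left and from its own transcripts on the right. Points are libraries and the dashed line marks equal levels. On the left KIKO activated libraries lie at 0.528 to 1.16, KI activated at 2.19 to 3.56 and naive libraries at or below 0.136.

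Mga (chr2:119702987-119792451, plus strand), the large MAX partner of a Polycomb complex, moved little. It had 8.77, 8.64 and 9.84 FPKM in KIKO activated, 6.47, 8.22 and 6.84 FPKM in KI activated, 12.3, 11.2 and 13.1 FPKM in KIKO naive and 11.1, 12.0 and 7.33 FPKM in KI naive cells. KI naive 3 lay among the activated libraries, far from the other naive ones. In activated cells the difference between KIKO and KI was 0.31 ± 0.16 (limma adjusted p = 0.14), which passed without KI naive 3 (adjusted p = 0.0468), and in naive cells 0.27 ± 0.16 (limma adjusted p = 0.301). With activation the difference in KIKO cells was -0.39 ± 0.16 (limma adjusted p = 0.0595) and passed without KI naive 2 (adjusted p = 0.0491) or KI naive 3 (adjusted p = 0.0146), and under 5 other settings (adjusted p = 0.0275 to 0.0496). Mga fell by 0.43 ± 0.16 in KI cells (limma adjusted p = 0.0319), a call lost without KI naive 1 (-0.35, adjusted p = 0.111), KI naive 2 (-0.30, 0.139), KI activated 1 (-0.36, 0.0997) or KI activated 3 (-0.40, 0.0838). It was also lost with no filter on low values (0.0563) and with only the 2 groups compared (0.0775). The responses differed by 0.04 ± 0.22 (limma adjusted p = 0.927).

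Mlx and Mlxip, the glucose-sensing branch, showed no difference between the genotypes by the test. Mlx (chr11:100978094-100983033, plus strand) had 19.4, 17.4 and 15.6 FPKM in KIKO activated, 17.0, 18.3 and 17.3 FPKM in KI activated, 12.0, 10.8 and 12.8 FPKM in KIKO naive and 11.5, 12.3 and 12.1 FPKM in KI naive cells. All activated libraries stood above all naive ones and the genotypes overlapped in each state. Activation raised it by 0.52 ± 0.10 in KIKO (limma adjusted p = 0.00109) and by 0.52 ± 0.10 in KI cells (limma adjusted p = 0.000654), and the responses differed by 0.0016 ± 0.14, with a 95% interval of -0.30 to 0.31 (limma adjusted p = 0.996). KIKO and KI cells differed by -0.0098 ± 0.10 when activated (limma adjusted p = 0.949) and by -0.0114 ± 0.10 when naive (limma adjusted p = 0.963). Mlxip (chr5:123532507-123596041, plus strand) had 9.03, 9.21 and 10.9 FPKM in KIKO activated, 9.87, 9.85 and 8.56 FPKM in KI activated, 11.9, 12.3 and 11.7 FPKM in KIKO naive and 12.8, 11.4 and 10.7 FPKM in KI naive cells. It fell by 0.28 ± 0.10 with activation in KIKO (limma adjusted p = 0.0468) and by 0.28 ± 0.10 in KI cells (limma adjusted p = 0.0367), the smallest changes called among the members. The KIKO call was lost without KI naive 2, KI activated 1, KI activated 2, any KIKO naive library, KIKO activated 1 or KIKO activated 2 (-0.29 to -0.23, adjusted p = 0.0529 to 0.155). The KI call was lost without KI naive 1, KI naive 2, KI activated 2 or KI activated 3 (-0.31 to -0.21, adjusted p = 0.0538 to 0.141). Each call was also lost under settings that kept every library (adjusted p = 0.0501 to 0.0872 in KIKO and 0.0568 to 0.0859 in KI), and the KIKO call without the 2 KIKO libraries with myeloid transcripts (-0.22, adjusted p = 0.195). KIKO and KI cells differed in Mlxip by 0.04 ± 0.10 both when activated (limma adjusted p = 0.802) and when naive (limma adjusted p = 0.859).

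Mlx transcripts differed in make-up between the groups. A longer first exon (chr11:100978103-100978355) took 21.3%, 4.54% and 7.40% of the summed starts in KIKO activated, 25.2%, 35.3% and 31.3% in KI activated, 15.5%, 16.6% and 23.8% in KIKO naive and 31.6%, 19.02% and 22.6% in KI naive cells. Activated KIKO libraries were all below activated KI libraries, KIKO activated 1 the closest to them, and no test was run on these shares. A 90-base exon (chr11:100979062-100979151) was included in 86.5%, 89.8% and 86.8% in KIKO activated, 91.6%, 87.8% and 92.3% in KI activated, 98.0%, 99.8% and 98.5% in KIKO naive and 99.9%, 96.9% and 98.8% in KI naive cells. Activated libraries were all below naive ones. The log2 ratio of included to skipped fell by 1.09 ± 0.19 in KIKO (limma adjusted p = 0.00733) and by 0.77 ± 0.19 in KI cells (limma adjusted p = 0.0143). The KI call was lost without KI naive 1 (-0.68, limma adjusted p = 0.0551) or KI activated 2 (-0.63, limma adjusted p = 0.0541). Activated KIKO and KI cells differed by -0.30 ± 0.19 (limma adjusted p = 0.384) and the responses by -0.32 ± 0.27 (limma adjusted p = 0.628). Skipped FPKM of this exon were only 0.0104 to 0.383 in naive and 1.33 to 2.60 in activated libraries, so the size of the fall depends on the pseudocount. With a pseudocount of 0.25 the activation response was -2.23 in KIKO (limma adjusted p = 0.0263) and -1.80 in KI cells (limma adjusted p = 0.0206).

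Genes that MYC is known to activate, enzymes and factors of ribosome production, translation, nucleotide synthesis, glycolysis and the cell cycle, were read as a list of 75, of which 67 were tested. Among activated cells, 55 of the 67 were lower in KIKO and 2 higher, against 19.3% of all loci lower and 20.7% higher, with a median difference of -0.998 against 0.04 over all loci. In naive cells 3 were lower and 2 higher, against 10.4% of all loci called, with a median of 0.09 against 0.05. These 5 calls became 9 without KIKO activated 3, 3 without KIKO activated 1, KI activated 2, KIKO naive 1 or KIKO naive 3, and 2 without KIKO naive 2 or any KI naive library. Activation raised 56 and lowered 1 in KIKO cells, against 25.1% of all loci up and 22.2% down. The median was 1.14 against 0.0043 over all loci. In KI cells activation raised 64 and lowered 1, against 32.2% up and 29.5% down, with a median of 2.18 against -0.0058. The responses differed for 50, of which 49 were smaller in KIKO, against 20.6% of all loci called. The median was -1.07 against -0.0079, and the count of 50 lay between 41 and 54 without any single library. Without the 2 KIKO libraries with myeloid transcripts, 58 were lower and 1 higher in activated KIKO cells.

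Examples show the size of these differences. Ldha, lactate dehydrogenase, had 148, 141 and 111 FPKM in KIKO activated, 463, 566 and 612 FPKM in KI activated, 80.3, 72.2 and 85.01 FPKM in KIKO naive and 127, 123 and 130 FPKM in KI naive cells. It was lower in KIKO both when activated (-2.03 ± 0.13, limma adjusted p = 6.18e-07) and when naive (-0.67 ± 0.13, limma adjusted p = 0.00735). Ccnd2, cyclin D2, was lower in activated KIKO cells (-1.51 ± 0.11, limma adjusted p = 2.38e-06), and so was Tfrc, the transferrin receptor (-2.05 ± 0.17, limma adjusted p = 4.77e-06). The members that went against the list were Slc3a2, the heavy chain of amino acid transporters, and Hspe1, a mitochondrial chaperonin. Slc3a2 had 196, 260 and 141 FPKM in KIKO activated cells and 69.4, 61.8 and 58.7 FPKM in KI activated cells, a difference of 1.598 ± 0.17 (limma adjusted p = 2.11e-05). Hspe1 was higher in activated KIKO cells by 0.51 ± 0.17 (limma adjusted p = 0.0321).

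Genes that MYC is known to repress, mostly brakes of growth and of the cell cycle, were a list of 20 with 16 tested. Of these, 11 were above KI levels in activated KIKO cells and 0 below, against 20.7% of all loci higher and 19.3% lower. The median of the 16 was 1.05 against 0.04 over all loci. In naive cells 2 were higher and 1 lower, against 6.46% and 3.9% of all loci. Activation raised 5 and lowered 7 in KIKO cells, against 25.1% of all loci up and 22.2% down. In KI cells activation raised 2 and lowered 13, against 32.2% up and 29.5% down. Tob1, an inhibitor of T cell proliferation, had 28.4, 25.9 and 31.6 FPKM in KIKO activated, 11.5, 9.29 and 8.51 FPKM in KI activated, 55.1, 59.3 and 56.5 FPKM in KIKO naive and 55.3, 51.9 and 55.9 FPKM in KI naive cells. It was higher in activated KIKO cells by 1.47 ± 0.11 (limma adjusted p = 2.14e-06). Cdkn1a, the cell cycle inhibitor p21, rose with activation in both genotypes, to 85.2, 119 and 56.0 FPKM in KIKO and to 12.1, 9.69 and 6.73 FPKM in KI, and was higher in activated KIKO cells by 3.03 ± 0.28 (limma adjusted p = 8.95e-06). Both target lists are textbook targets that other factors also control, and Myc's part in their levels was not tested. These and the further lists below were chosen with earlier results of these data known. Setting their shares beside those of all loci is therefore only a description.

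**Figure D5:**
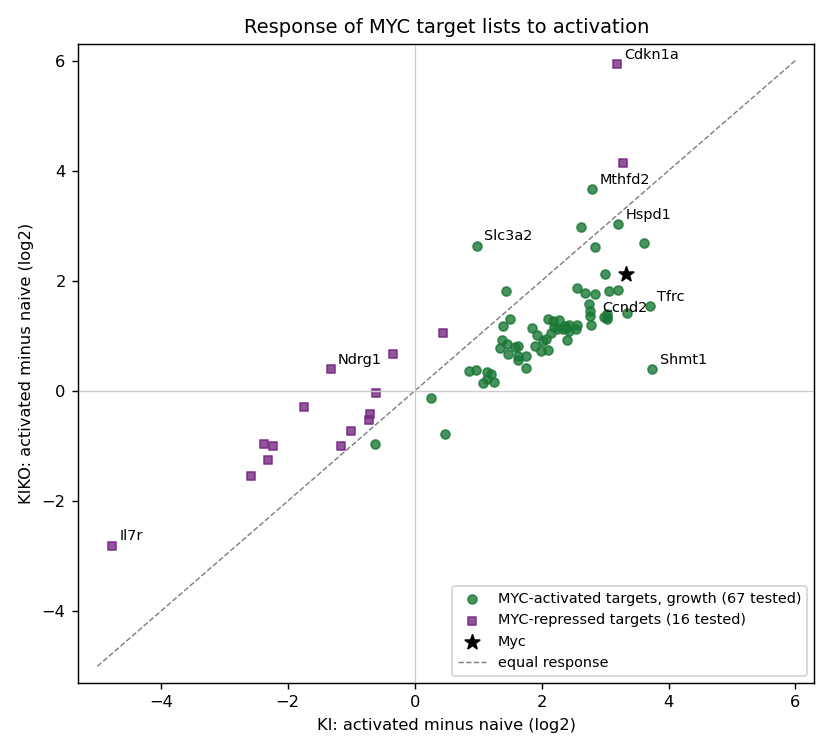
Difference between activated and naive cells (log2) in KIKO (vertical axis) against KI (horizontal axis) for 67 tested MYC-activated targets, 16 tested MYC-repressed targets and Myc itself. The dashed line marks an equal response. Most activated targets lie below the line, like Myc, and most repressed targets above it.

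Among the genes that work with the network, calls in activated cells went in both directions. Of 15 tested cofactors of MYC, 2 were higher and 5 lower in activated KIKO cells, against 20.7% of all loci higher and 19.3% lower (40.0% called), and their median was 0.11 against 0.04. The lower ones included Ruvbl1 (-0.61 ± 0.14, limma adjusted p = 0.00421) and Ruvbl2 (-0.61 ± 0.14, limma adjusted p = 0.00492), the paired ATPases of chromatin remodellers, and Kat2a (-0.69 ± 0.10, limma adjusted p = 0.000162), the acetyltransferase GCN5. Zbtb17, the MYC partner MIZ1, was higher (0.35 ± 0.10, limma adjusted p = 0.0123). Of 14 tested corepressors of MXD and MNT, 4 were higher and 3 lower in activated KIKO cells, also near the 40.0% of all loci called, with a median of -0.03 against 0.04. Arid4a, a SIN3 subunit, was higher by 0.76 ± 0.12 (limma adjusted p = 0.000514), and Hdac1, a histone deacetylase, was lower (-0.47 ± 0.08, limma adjusted p = 0.000756). Of 14 tested genes of MGA's Polycomb complex, 2 were higher and 5 lower, against the same 40.0% called, with a median of -0.32 against 0.04. E2f6, a repressive E2F, was higher in KIKO cells both when activated (1.38 ± 0.12, limma adjusted p = 4.63e-06) and when naive (1.48 ± 0.12, limma adjusted p = 1.51e-05), and Tfdp1, its dimer partner, was lower when activated (-1.23 ± 0.21, limma adjusted p = 0.000641). Hdac1, Hdac2 and Wdr5 stand in more than one of these lists.

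Genes that MLX and MLXIP switch on with glucose were 4, all tested. In activated cells 3 were higher and 0 lower in KIKO, against 20.7% of all loci higher, with a median of 0.82 against 0.04. Only 1 was called without KIKO activated 1, KI activated 2 or KI activated 3. In naive cells 0 were higher and 1 lower in KIKO, against 10.4% of all loci called. Tsc22d3, also a glucocorticoid target, had 38.4, 26.3 and 51.3 FPKM in KIKO activated and 10.7, 5.50 and 9.44 FPKM in KI activated cells, a difference of 2.05 ± 0.24 (limma adjusted p = 4.94e-05), but its locus matched another gene's exon lengths better than its own. Arrdc3, an arrestin-like regulator of uptake like Arrdc4, was higher by 0.59 ± 0.20 (limma adjusted p = 0.0357). It had 7.59, 7.48 and 6.55 FPKM in KIKO activated and 6.76, 4.21 and 3.00 in KI activated cells, which overlapped. In naive cells it was lower in KIKO, at 7.17, 5.13 and 6.82 FPKM against 11.7, 13.7 and 11.8 in KI. Arrdc4 was higher by 0.93 ± 0.32 (limma adjusted p = 0.0366), at 1.00, 2.10 and 0.943 FPKM against 0.300, 0.0 and 0.332. It reached 1 FPKM only in KIKO activated 1, KIKO activated 2 and KIKO naive 2, so it passed the filter only through KIKO libraries. Txnip, an inhibitor of glucose uptake, had 44.8, 20.6 and 78.5 FPKM in KIKO activated and 28.8, 22.5 and 24.2 FPKM in KI activated cells, which overlapped (0.72 ± 0.33, limma adjusted p = 0.103). Without the 2 KIKO libraries with myeloid transcripts, Arrdc4 no longer passed the filter and 2 of 3 tested were higher. Of 5 tested other E-box factors, Bhlhe40, an activation-induced repressor, was lower in activated KIKO cells (-1.73 ± 0.35, limma adjusted p = 0.00181), while Tfe3, Tfeb, Mitf and Usf2 differed by -0.16 to 0.15 without a call.

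The genes whose pattern over the 12 libraries was most like that of each member were found by Pearson's r of log2(FPKM + 1) among 6378 loci. The 12 points fall into the 4 groups, so r mainly measures likeness of the group levels. For Myc they were Nutf2 (r = 0.997), Pus1 (0.996), Zfp593 (0.995), Eif4a1 (0.995) and Mak16 (0.994). For Max they included Nans (0.977), Csrp1 (0.976), Spcs3 (0.976) and Ppm1g (0.9752). For Mxi1 they were Ypel3 (0.993), Heca (0.99), Ap3m2 (0.989), Tbc1d20 (0.989) and Frmd8 (0.988). The nearest to the other tested members were Il18r1 for Mnt (0.988), Elovl5 for the Mxd4 locus (0.978), Ergic1 for Mlx (0.98), Btbd7 for Mga (0.957) and Zswim8 for Mlxip (0.951).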

How the data were processed

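Poly(A) RNA of 12 samples was sequenced from a stranded library kit, per the labels' protocols. The submitters' processing notes name FastQC 0.11.9, cutadapt 2.9 and HISAT2 2.2.0, and the builds GRCm39 and mm10. The program that made the deposited FPKM values of transcript events (starts, ends, skipped exons) is not given in sources used here, and the deposited coordinates fit GRCm39. Duplicate events were dropped, and the level of a locus was the largest of summed starts, summed ends and largest event, with absent loci at 0. limma 3.58.1 in R 4.3.3 fitted log2(FPKM + 1) with 4 group means and an intensity trend, for loci with at least 1 FPKM in at least 3 libraries, two-sided, with Benjamini-Hochberg adjustment over 9743 loci. FPKM were tested as log2(FPKM + 1), and the added 1 understates changes of low genes. The depth is unknown, so no counting interval is given. The test was also run on simulated data, with an outcome not given here. Locus names were checked by matching exon and intron lengths to GENCODE M21. Sequences are from RefSeq and GENCODE M21. All 10 members are named, and list members are among the 6 with the smallest p of their list or go against it. Members and lists were chosen with earlier results of these data known. Alternatives were pseudocounts, filters, scalings, level definitions, the spread estimate, a replicate block, leaving out each library, and, added after seeing the data, leaving out both KIKO libraries numbered 2, Mxd4's own transcripts and the skipped-exon test. Some genes that meet these rules are not reported here.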

Additional observations from a re-analysis of the deposited data

Results flagged for a closer look

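The response of 4 measures to activation differed between KIKO and KI cells by limma's interaction term, given as the KIKO response minus the KI response on the log2 scale. That term was called for 20.6% of all loci. Myc differed by -1.20 (adjusted p = 0.00503), a rise in both genotypes, with every KIKO activated library below every KI activated one. Max differed by -0.42 (adjusted p = 0.0211), Mxi1 by 0.94 (adjusted p = 0.00376) and Mxd4 from its own transcripts by 0.91 (adjusted p = 0.0351). The level from its own transcripts was added after the data were seen, and the whole Mxd4 locus differed by 0.16 without a call (adjusted p = 0.629). The values for Max and for Mxd4's own transcripts lost their call in 5 and 10 of the 12 fits without 1 library, and those for Myc and Mxi1 in none. Markers of T cells were lower in KIKO activated cells and myeloid transcripts stood in 2 KIKO libraries; their part was not tested.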

How the results depend on the processing

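Of the results recomputed without single libraries, 1174 values held, 33 turned sign, 43 lost a call, 4 gained one and 66 counts or untested values moved. Under the other alternatives 1265 held, 19 turned sign, 19 lost a call, 7 gained one and 63 moved. No value called at its reported setting turned sign. When levels came from summed transcript ends only, 6485 loci could be tested, against 9743. The number called fell with it, to 553 (KIKO against KI, naive), 2309 (activated), 2746 (activation in KIKO), 3583 (activation in KI) and 1114 (interaction). There only Mlx, Myc, Mxi1, Mlxip and Mxd4 could be tested, and 2 were called between activated KIKO and KI cells and 4 in KI activation, where Mlxip lost its call (-0.2047, adjusted p = 0.0859). Without single libraries, the naive count lay between 493 and 1166 loci, against 1009.

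Rescaling to an equal sum put the median difference of all loci at 0.132 (naive), 0.15 (activated), -0.09 (KIKO activation) and -0.13 (KI activation), against 0.05, 0.04, 0.0043 and -0.0058. It split the naive calls 1123 higher and 263 lower, against 629 and 380, and the activated calls 2618 and 1417, against 2021 and 1877; median-ratio scaling split the naive calls 429 and 542, and quantile normalization 487 and 498. It also turned the sign of Mlx in naive (0.0788) and activated cells (0.1165), of Max in KIKO activation (-0.007) and of Mxd4's own transcripts in naive cells (0.0879). Mlxip turned under median-ratio scaling (naive -0.0285, activated -0.0162), under quantile normalization (naive -0.0384, activated -0.0456, interaction -0.0072), and in the interaction with a pseudocount of 4 (-0.0002), starts only (-0.017) or ends only (-0.0965). Mga turned in the interaction with starts only (-0.0844), and Mxd4 in naive cells from its own transcripts (-0.0058). Without both KIKO libraries numbered 2, signs turned for Mlx (naive 0.0494, interaction -0.0607), and in naive cells for the 85-base exon of Max (0.1784), the 90-base exon of Mlx (-0.0143) and Mxd4's own transcripts (0.0088). The cause was not tested.

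Without single libraries, ranges that crossed 0 were, in naive cells, -0.0631 to 0.0494 (Mlx), -0.0134 to 0.1019 (Mlxip), -0.0004 to 0.1271 (Mxd4), -0.0522 to 0.0363 (Mxd4's own transcripts), -0.1938 to 0.1784 (Max exon) and -0.0983 to 0.105 (Mlx exon). In activated cells they were -0.0829 to 0.0648 (Mlx) and -0.0407 to 0.0852 (Mlxip), and in the interaction -0.0714 to 0.0762 (Mlx), -0.0859 to 0.2357 (Mga) and -0.0794 to 0.0523 (Mlxip).

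Same-numbered libraries of different groups deviated together with correlations of -0.0361 to 0.1211 (median 0.0073, 18 pairs). Differently numbered ones had -0.131 to 0.1196 (median -0.0059, 36 pairs). Between the naive and activated library of the same number, the values were 0.0555, 0.0792 and 0.1016 in KI and -0.0044, 0.0939 and 0.035 in KIKO. Whether the numbers pair naive with activated libraries cannot be told from these values. With the replicate block, 875 (naive), 3825 (activated), 4511 (KIKO activation), 5939 (KI activation) and 1849 (interaction) loci were called, against 1009, 3898, 4609, 6013 and 2010. Mlxip lost its call in KIKO (adjusted p = 0.0703) and KI activation (0.0568), and the Max exon between activated KIKO and KI cells (0.0809). Mlxip also lost the KIKO call with no filter (0.0599), median-ratio scaling (0.0514), starts only (0.0689), no intensity trend (0.0501) and only the 2 groups compared (0.0872), and the KI call with starts only (0.0702). Mga gained a call in KIKO activation with a filter of 5 FPKM (0.0496), quantile normalization (0.0495), an equal sum (0.0418), starts only (0.0275) and only the 2 groups compared (0.0304). Depth behind the FPKM is unknown, which limits what can be said of low genes such as Mxd3.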

Other observations

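Genes that act on Myc in T cells, upstream signals of the antigen receptor, cytokines and growth pathways, were a list of 28 with 27 tested. In activated cells 5 were higher and 9 lower in KIKO than KI, against 20.7% of all loci higher and 19.3% lower, with a median of -0.10 against 0.04. Pvt1, the noncoding neighbour of Myc, had 13.0, 11.8 and 8.28 FPKM in KIKO activated, 3.70, 5.64 and 5.31 FPKM in KI activated, 1.08, 1.003 and 0.95 FPKM in KIKO naive and 2.06, 1.66 and 1.74 FPKM in KI naive cells. It thus went the other way from Myc in activated cells, higher in KIKO by 1.02 ± 0.18 (limma adjusted p = 0.000727), and its responses differed by 1.51 ± 0.25 (limma adjusted p = 0.00203). Notch1, a receptor that drives Myc, was higher in activated KIKO cells (0.92 ± 0.13, limma adjusted p = 0.000207). Rel, an NF-kB subunit, was lower (-0.47 ± 0.12, limma adjusted p = 0.00621), and so was Akt1, a growth kinase (-0.60 ± 0.11, limma adjusted p = 0.00105). Irf4, a transcription factor of T cell activation, rose with activation by 6.98 ± 0.20 in KIKO (limma adjusted p = 1.35e-09) and by 7.50 ± 0.20 in KI cells (limma adjusted p = 5.94e-10), and these responses differed by -0.52 ± 0.28 without a call (limma adjusted p = 0.216). Some other genes of stimulation differed in level: Il2ra averaged 53.0 ± 12.6 FPKM in KIKO activated and 106 ± 2.1 FPKM in KI activated cells, and Tnfrsf9 17.4 ± 2.5 and 45.5 ± 4.7 FPKM (SD, n = 3 each). Cd69 averaged 157 ± 42 and 173 ± 23 FPKM (SD, n = 3 each), with overlap.

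Genes that set the stability of the MYC protein were a list of 21 with 18 tested. In activated cells 5 were higher and 2 lower in KIKO, near the 40.0% of all loci called, with a median of 0.03 against 0.04. Only 4 were called without KIKO activated 3 or KI activated 3, and 4 to 9 without any single library. Set, an inhibitor of the phosphatase PP2A, had 125, 136 and 107.65 FPKM in KIKO activated and 264, 384 and 364 FPKM in KI activated cells, a difference of -1.44 ± 0.13 (limma adjusted p = 8.7e-06). Pim1, a kinase that phosphorylates MYC, was higher in activated KIKO cells by 0.78 ± 0.11 (limma adjusted p = 0.000165). MYC protein was not measured.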
